A study of Mus musculus with 16 samples.

Results

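The 10 genes described here encode precursors of neuropeptides made by hippocampal neurons: Npy, Penk, Pdyn, Tac1, Tac2, Sst, Cck, Vip, Crh and Nts. They were taken by gene name from the deposited table of raw counts, in which they are 10 of 49315 genes, and all 10 were among the 17469 genes that passed the filter on low counts. RNA from the hippocampus of 16 mice was sequenced in 4 groups of 4 libraries. The groups were wild type mice on a standard diet, Kcna1 knockout mice on a standard diet, wild type mice on a ketogenic diet and Kcna1 knockout mice on a ketogenic diet. The Kcna1 protein forms part of a potassium channel that dampens firing, its loss leads to spontaneous seizures in mice, and a ketogenic diet is rich in fat and poor in carbohydrate. The labels give the knocked-out gene but no allele design, and no strain, age, sex, time on the diet or record of seizures. Nothing in them says whether the libraries came from separate litters. The p-values treat the libraries as independent and set group differences against the spread between libraries.

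Neuropeptides are cut from larger precursor proteins, packed into dense core vesicles and released when neurons fire strongly, and they act on G protein-coupled receptors. In the hippocampus, interneurons make neuropeptide Y, somatostatin, cholecystokinin and vasoactive intestinal peptide, and dentate granule cells can make enkephalin, dynorphin and, after seizures, neuropeptide Y. Many of these precursor genes are transcribed in an activity-dependent way through cyclic AMP response elements (CRE) and AP-1 sites.

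Promoter windows from RefSeq (build GRCm38.p6) were matched for 8 of the 10 members and cut to the 250 bases before the start site. Those of Npy and Cck are shown, 5′ to 3′ on the gene's strand, because these genes gave the smallest p-values among the members in the genotype comparison on the standard diet. Capitals mark a match to the CRE half-site.
Npy: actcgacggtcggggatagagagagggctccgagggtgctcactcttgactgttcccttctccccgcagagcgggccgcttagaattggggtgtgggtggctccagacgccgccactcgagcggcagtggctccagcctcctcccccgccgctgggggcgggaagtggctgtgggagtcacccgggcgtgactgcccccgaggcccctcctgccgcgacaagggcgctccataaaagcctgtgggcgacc
Cck: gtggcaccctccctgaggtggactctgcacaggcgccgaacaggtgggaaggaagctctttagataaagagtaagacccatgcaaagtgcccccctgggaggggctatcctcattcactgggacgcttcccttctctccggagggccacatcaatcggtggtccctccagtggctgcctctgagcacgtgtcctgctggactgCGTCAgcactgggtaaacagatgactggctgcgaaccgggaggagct
The Npy window is chr6:49822460-49822709 on the plus strand and held no match to any of the motifs searched. The Cck window is chr9:121495695-121495944 on the minus strand and held 1 half-site, starting 47 bases before the start site. The Sst window, chr16:23890845-23891094 on the minus strand, held the full CRE, starting 48 bases before the RefSeq start site; that start site lies inside the gene as GENCODE draws it, so the match does too. The search covered both strands for the full CRE TGACGTCA, its half-site TGACG or CGTCA (which the full CRE contains), AP-1 as TGAGTCA or TGACTCA, and TATA as TATAAA or TTTATA. Of 32851 windows of this length, 1.55% held the full CRE, 17.8% a half-site, 4.46% AP-1 and 12.4% TATA. Among the other matched members, Tac1, Vip and Nts held half-sites, Nts also held AP-1 and Vip also held TATA, whereas Tac2 and both windows of Pdyn held none of these. The Tac1 window, chr6:7554811-7555060, runs past the gene start that GENCODE gives, 7554879. Of its 2 half-sites, the one 43 bases before the RefSeq start site lies inside the gene. A match describes letters in a window and is not evidence of binding.

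Total counts per library ran from 13440230 to 22309504. Kcna1 was at 107 to 130.1 CPM (counts scaled to a library of 1000000) in the 8 wild type libraries and at 43.4 to 47.2 CPM in 7 knockout libraries. The library labelled knockout on the standard diet with the column name KC888LL stood between them at 82.0 CPM. Its Kcna1 level matched neither genotype's range, so its genotype label is uncertain; the groups below follow the labels, and the genotype results for Npy, Penk, Cck and the counts of libraries are also given without it. Ddx3y, a Y-linked gene, was at 56.5 to 65.1 CPM in KC890RL (wild type, standard diet), KC872RL and KC873RR (knockout, standard diet) and KC846L (wild type, ketogenic diet), and at no more than 1.63 CPM in the others. Granule cell markers were present in every library, with summed levels of 378 to 722 CPM in wild type and 392 to 569.5 CPM in knockout libraries. Scaling by the total count moved no member's CPM by more than 3.12%.

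In the wild type on the standard diet, the order of levels per kilobase of exon (CPM per kb) was led by Cck at 157 ± 14.8 (SD, n = 4) and Sst at 128 ± 19.96. Their ranges, 139 to 171 and 106 to 154 CPM per kb, overlapped. Npy followed at 30.2 ± 3.97 CPM per kb and Penk at 8.87 ± 2.39, each separate from its neighbours. Vip at 4.57 ± 0.631, Pdyn at 3.90 ± 0.805 and Nts at 2.66 ± 0.459 CPM per kb came next, and neighbours in this stretch overlapped. Tac1 at 1.31 ± 0.275, Tac2 at 1.25 ± 0.193 and Crh at 0.982 ± 0.365 CPM per kb were lowest and overlapped one another. Cck stood at the 99.1st percentile of genes with a length and Crh at the 23.4th.

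**Figure D1:**
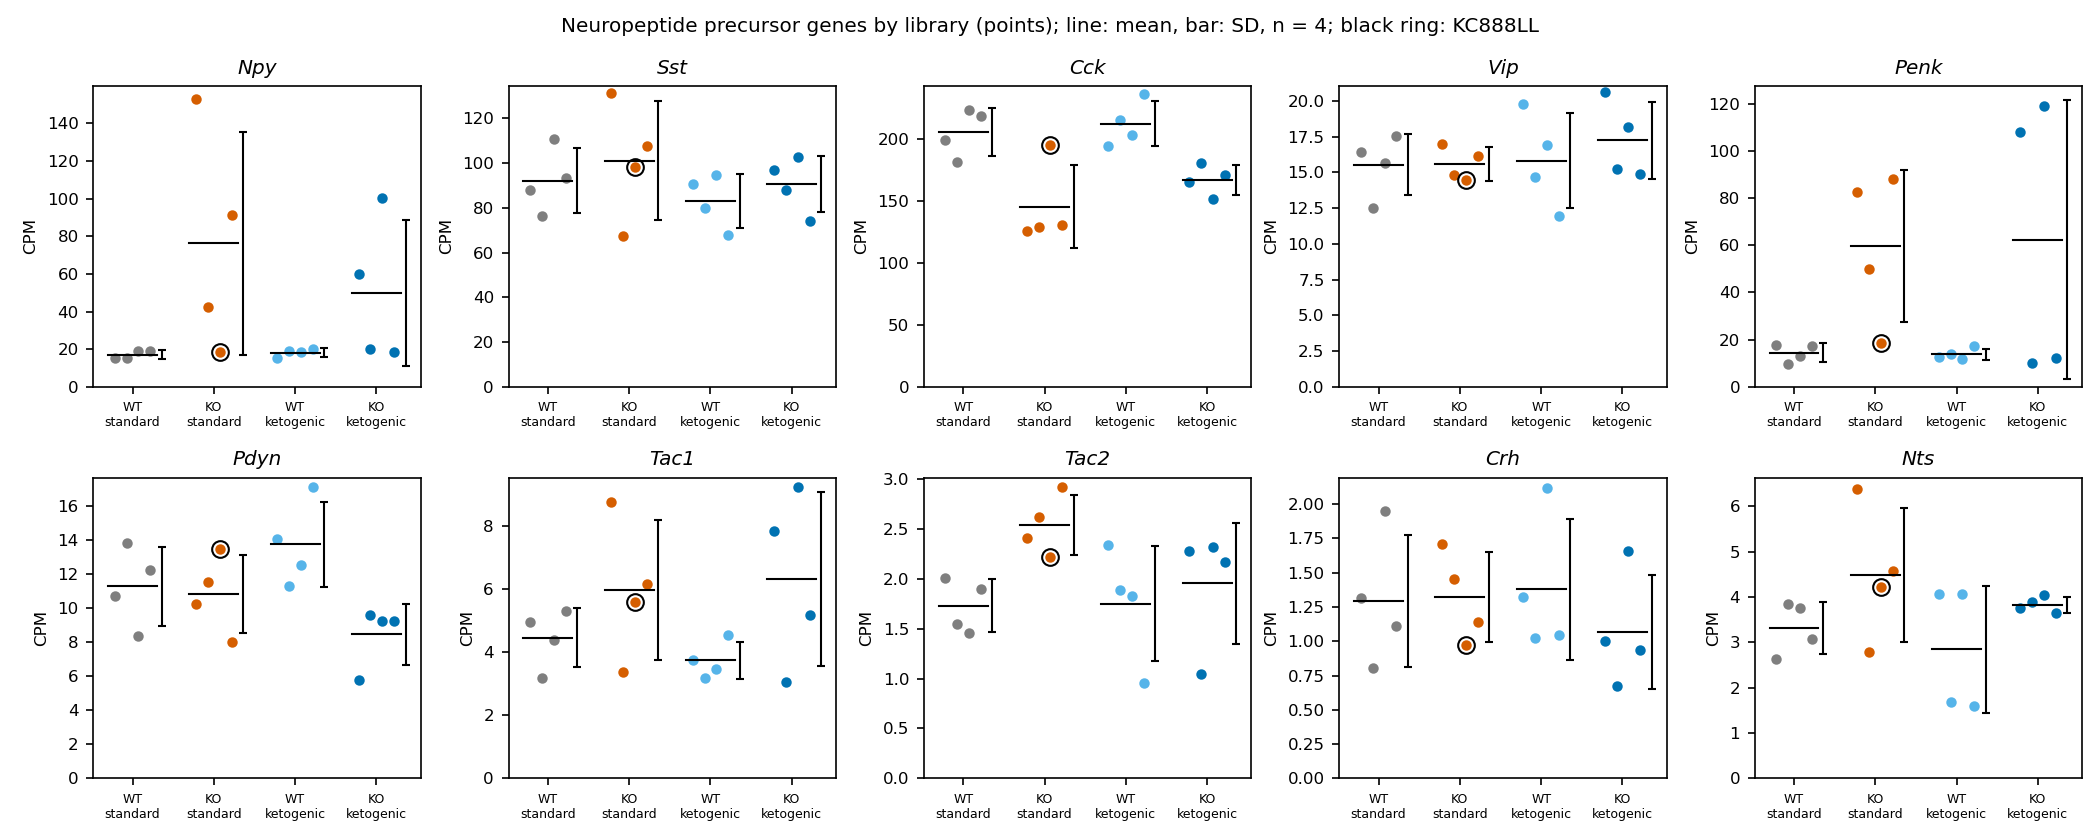
Level of each of the 10 neuropeptide precursor genes in each of the 16 libraries, in CPM, 1 panel per gene and 1 point per library, with the 4 groups along the x axis, a line at the mean, a bar of 1 SD and a black ring around KC888LL. Npy and Penk reach 153 and 119 CPM in knockout libraries, while the wild type libraries stay at or below 20.2 and 17.9 CPM.

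Npy (ENSMUSG00000029819, chr6:49822710-49829507, plus strand, GRCm38), the precursor of the inhibitory peptide neuropeptide Y, had higher values in knockout libraries on both diets, with a wide spread among them. Under standard feeding its level was 15.2, 15.1, 19.1 and 19.1 CPM in wild type and 153, 42.4, 18.3 and 91.2 CPM in knockout libraries KC872RL, KC873RR, KC888LL and KC893RL. Of these knockout libraries, 3 were above every wild type library and KC888LL lay inside the wild type range. On the ketogenic diet Npy was at 15.1, 19.2, 18.3 and 20.2 CPM in wild type and at 59.9, 20.04, 100.3 and 18.4 CPM in knockout libraries KC913RR, KC916RRL, KC934R and KC935LL. KC916RRL and KC935LL lay inside the wild type range, so the groups overlapped on each diet. Over both diets the highest knockout library had 8.36 times the level of the lowest, against 1.33 times among wild type libraries. The genotype difference (log2 fold change of knockout over wild type ± SE) was 2.16 ± 0.65 for standard and 1.45 ± 0.64 for ketogenic feeding, with adjusted p = 0.207 and 0.531 by edgeR's quasi-likelihood test with Benjamini-Hochberg adjustment over all tested genes. Averaged over the diets it was 1.81 ± 0.46 (adjusted p = 0.115). None of the 3 tests passed the threshold of 0.05. Without KC872RL the standard diet value was 1.56. Without KC888LL, Npy passed on the standard diet (2.48 ± 0.57, adjusted p = 0.0325, edgeR) and averaged over the diets (1.96, adjusted p = 0.0194), in fits that called 5.73% and 4.96% of all genes. Over all alternatives tried the adjusted p for Npy was 0.0325 to 0.665 under standard feeding and 0.00496 to 0.247 for the average of the diets. Without KC934R the ketogenic diet value was 0.84. In bulk RNA, a change in the number of cells of a type and a change in RNA per cell cannot be told apart.

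Penk (ENSMUSG00000045573, chr4:4133531-4138819, minus strand), the precursor of the enkephalins, had the largest averaged difference among the members. On the standard diet Penk was at 17.9, 9.63, 13.1 and 17.4 CPM in wild type and at 82.3, 49.7, 18.7 and 88.0 CPM in knockout libraries, in the library order given for Npy. All 4 libraries labelled knockout were above all 4 wild type libraries, the library of uncertain genotype, KC888LL, by less than 1 CPM. Under ketogenic feeding it was at 12.6, 13.7, 11.9 and 17.2 CPM in wild type and at 108, 10.2, 119 and 12.4 CPM in knockout libraries. KC913RR and KC934R were high there, and KC916RRL and KC935LL were not. The log2 fold change was 2.04 ± 0.75 (adjusted p = 0.261) for standard feeding, 2.17 ± 0.75 (adjusted p = 0.438) for ketogenic feeding and 2.10 ± 0.53 (adjusted p = 0.116) averaged over both. None passed by edgeR's test. Over all alternatives the ketogenic diet value ran from 1.41 to 2.52, and it was 1.64 without KC934R. Without KC888LL the value was 2.33 ± 0.74 (adjusted p = 0.094) for standard feeding and 2.25 (adjusted p = 0.0313) averaged over both; over all alternatives the adjusted p was 0.094 to 0.674 and 0.00459 to 0.272. An antisense gene, A830012C17Rik, overlaps Penk, and it had 0 to 25 counts per library against 137 to 2150 for Penk; use of strand in counting is not given in the sources used here.

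Pdyn (ENSMUSG00000027400, chr2:129686565-129699844, minus strand), the precursor of dynorphin, differed from Penk in its pattern over libraries. On the standard diet it was at 10.7, 13.8, 8.35 and 12.2 CPM in wild type and at 10.2, 11.5, 13.5 and 7.99 CPM in knockout libraries. These ranges overlapped almost entirely. With ketogenic feeding Pdyn was at 14.1, 11.3, 12.5 and 17.1 CPM in wild type and at 5.75, 9.57, 9.23 and 9.22 CPM in knockout libraries. Every knockout library was below every wild type library there. The same was so for the sum of 5 blood genes, at 17.4 to 32.5 CPM in knockout and 42.7 to 105 CPM in wild type libraries on that diet (median log2 difference -1.64), and the 5 choroid plexus genes had a median of -2.76. The edgeR test called 0 of either list, and their part in the Pdyn and Cck values on this diet was not tested. Its log2 fold change was -0.06 ± 0.19 on the standard diet (adjusted p = 0.921) and -0.70 ± 0.19 on the ketogenic diet (adjusted p = 0.395, edgeR). The interaction of genotype and diet was -0.64 ± 0.27 (adjusted p = 0.654, edgeR) and did not pass.

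Cck (ENSMUSG00000032532, chr9:121489824-121495694, minus strand), the precursor of cholecystokinin and the member with the highest mean level per length, was lower in knockout libraries. On the standard diet it was at 199, 181, 223 and 218 CPM in wild type and at 126, 129, 195 and 131 CPM in knockout libraries. KC888LL, at 195 CPM, was the one knockout library inside the wild type range. Under ketogenic feeding Cck was at 194, 215, 203 and 236 CPM in wild type and at 165, 181, 152 and 171 CPM in knockout libraries, with no overlap. Over both diets 7 of 8 knockout libraries were below all 8 wild type libraries, KC916RRL by less than 1 CPM. The log2 fold change was -0.50 ± 0.12 on the standard diet (adjusted p = 0.192), -0.35 ± 0.12 on the ketogenic diet (adjusted p = 0.433) and -0.42 ± 0.08 averaged over both (adjusted p = 0.0689), by edgeR. Without KC888LL, Cck fell by 0.68 on the log2 scale on the standard diet (adjusted p = 0.000372) and by 0.52 averaged over the diets (adjusted p = 0.00012). Over all alternatives its adjusted p ran from 0.000372 to 0.653 and from 0.00012 to 0.189 in these comparisons. Without that library Cck was also higher on the ketogenic than on the standard diet among knockouts (0.38 ± 0.08, adjusted p = 0.0114, edgeR), in a fit that called 6.18% of all genes, and it was called for diet averaged over genotypes, where 2.58% of genes were. The adjusted p for diet in knockouts ran from 0.0114 to 0.735 over all alternatives. With it, that difference was 0.20 ± 0.12 (adjusted p = 0.418). With all libraries, 4 of 5 blood genes were called lower on the ketogenic diet in knockouts (median log2 fold change -2.02), and so was 1 of 8 thalamic genes, Tcf7l2 (median -0.59). Blood genes summed to 65.8 to 113 CPM in knockout libraries on the standard diet and 17.4 to 32.5 CPM on the ketogenic diet, and thalamic genes to 154 to 218 and 109 to 160.04 CPM. Without KC888LL the same 4 blood genes and 2 thalamic genes, Rora and Tcf7l2, were called lower, and granule cell Calb1, interneuron Lhx6 and the activity gene Arc higher. Choroid plexus genes, 0 of 5 called, had a median of -3.11 on the log2 scale over all libraries, and summed to 357, 188, 46.7 and 548 CPM in KC872RL, KC873RR, KC888LL and KC893RL against 31.4 to 52.1 CPM on the ketogenic diet. Ddx3y was high in 2 of the 4 libraries labelled knockout on the standard diet and in 0 of 4 on the ketogenic diet. With Xist, which is expressed from the inactive X chromosome, as a covariate and all libraries, the Cck diet difference was 0.15 ± 0.13 (adjusted p = 0.722, edgeR). For diet averaged over genotypes without KC888LL, Cck was higher by 0.22 on the log2 scale (adjusted p = 0.0441, edgeR). That comparison called the same 4 blood genes and the dense core vesicle gene Scg3 lower, and Calb1, Arc and the activity gene Npas4 higher. The part of the marker lists in the Cck differences was not tested.

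**Figure D2:**
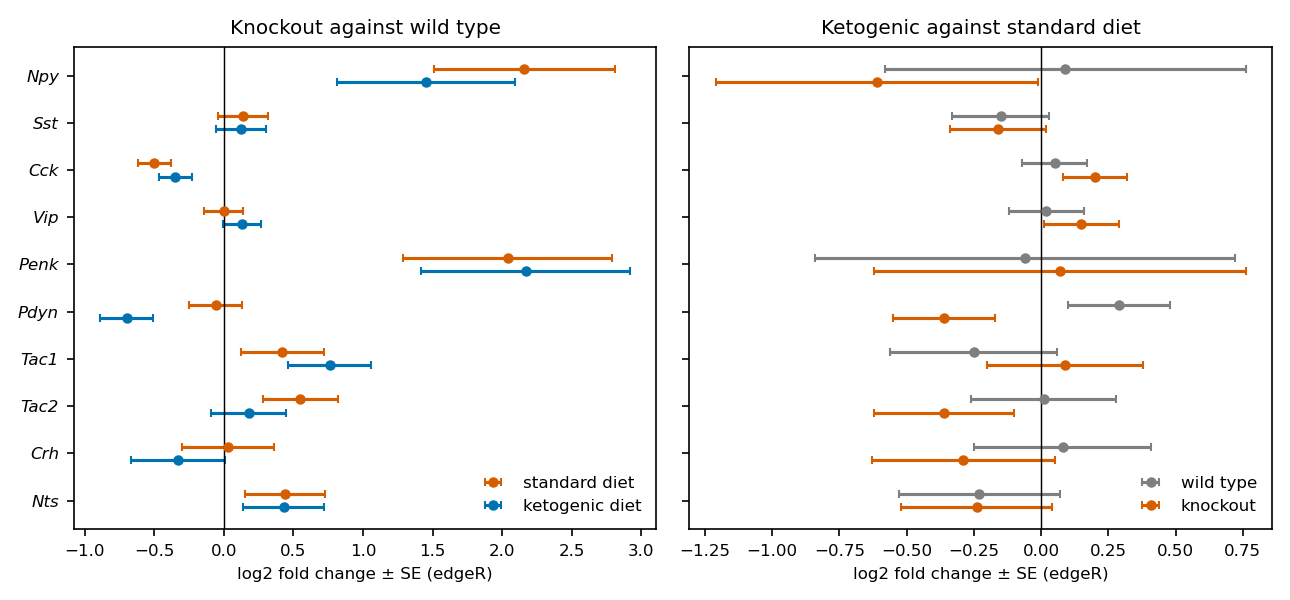
Log2 fold change of the 10 genes for knockout against wild type on each diet (left panel) and for ketogenic against standard diet in each genotype (right panel), with bars of 1 standard error from the edgeR fit. In the left panel Penk and Npy lie at 1.45 or above on both diets, and Cck lies below 0 on both.

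Tac1 (ENSMUSG00000061762, chr6:7554879-7565834, plus strand), the precursor of substance P and neurokinin A, was at 4.96, 3.16, 4.38 and 5.29 CPM in wild type and 8.75, 3.38, 5.57 and 6.15 CPM in knockout libraries under standard feeding. The ketogenic values were 3.76, 3.18, 3.48 and 4.55 CPM in wild type and 7.83, 3.07, 9.23 and 5.17 CPM in knockout libraries. The groups overlapped on both diets, and 5 of 8 libraries labelled knockout, KC888LL among them, were above all wild type libraries. Its averaged log2 fold change was 0.59 ± 0.21 (adjusted p = 0.198, edgeR). Tac2 (ENSMUSG00000025400, chr10:127724478-127731768, plus strand), the precursor of neurokinin B, was at 1.46 to 2.01 CPM in wild type and 2.22 to 2.92 CPM in knockout libraries on the standard diet, with no overlap; KC888LL was the lowest of the latter. In ketogenic libraries the ranges were 0.956 to 2.34 and 1.05 to 2.32 CPM. Tac2 rested on 14 to 48 counts per library, and its log2 fold change on the standard diet was 0.55 ± 0.27 (adjusted p = 0.356, edgeR).

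Sst (ENSMUSG00000004366, chr16:23889573-23890958, minus strand), the somatostatin precursor that marks a class of dendrite-targeting interneurons, was at 67.8 to 111 CPM in wild type and 67.2 to 131 CPM in knockout libraries. Its averaged log2 fold change was 0.13 ± 0.13 (adjusted p = 0.67, edgeR), and 0.05 to 0.21 with a library left out. Vip (ENSMUSG00000019772, chr10:5639218-5647617, plus strand), the precursor of vasoactive intestinal peptide, made by interneurons that contact other interneurons, was at 11.9 to 19.8 CPM in wild type and 14.4 to 20.6 CPM in knockout libraries, with an averaged log2 fold change of 0.07 ± 0.10 (adjusted p = 0.801, edgeR). For both genes the genotypes overlapped over most of their ranges. Nts (ENSMUSG00000019890, chr10:102481756-102490486, minus strand), the neurotensin precursor, was at 1.59 to 4.07 CPM in wild type and 2.80 to 6.39 CPM in knockout libraries, with an averaged log2 fold change of 0.44 ± 0.21 (adjusted p = 0.308, edgeR). Crh (ENSMUSG00000049796, chr3:19693401-19695396, minus strand), the precursor of corticotropin-releasing hormone, rested on 9 to 36 counts per library and had an averaged log2 fold change of -0.15 ± 0.24 (adjusted p = 0.808, edgeR). With a library left out, the averaged Crh value was -0.3 to -0.01. Differences in Crh at this depth could not be resolved below the spread of its libraries.

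Across the 10 members, edgeR called 0 at an adjusted p under 0.05 in each of the 7 comparisons. Over all tested genes the same rule called 0.00572% for genotype on the standard diet, 0.0172% for genotype on the ketogenic diet and 0.0973% for genotype averaged over diets. It called 1.16% for diet in knockouts (202 genes), 0.0114% for diet in wild type, 0.899% for diet averaged over genotypes and 0% for the interaction. The count of 202 genes for diet in knockouts was 7 with Xist as a covariate, 9 with those groups fitted alone and 677 with DESeq2. It was 28, 46, 87, 88 and 1096 without KC872RL, KC873RR, KC913RR, KC916RRL and KC888LL. The count for diet averaged over genotypes was 157 with all libraries, 51 without KC890RL, 457 without KC888LL and 74 with Xist as a covariate. That for genotype averaged over diets was 17 with all libraries, 6 without KC893RL and 880 without KC888LL. At an unadjusted p under 0.05, genotype had 3 members on the standard diet (14.3% of all genes), 5 on the ketogenic diet (9.22%) and 6 averaged over diets (15.8%). Diet had 0 members in knockouts (16.9%), 0 in wild type (5.46%) and 0 averaged over genotypes (14.4%), and the interaction had 1 (7.48%). DESeq2 called 2 members, Npy and Cck, on the standard diet, where it called 0.967% of all genes, and 3, Penk, Npy and Cck, averaged over diets, where it called 2.38%. It called 0 members in the other comparisons; limma-voom called 0 throughout. The median log2 fold change of the members averaged over diets was 0.25, against 0.01 for all tested genes.

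Counts of libraries outside the wild type range describe the members one library at a time. Penk was above all 8 wild type libraries in 6 of the 8 libraries labelled knockout, where 1.47% of all genes were above in 6 or more. Npy and Tac1 were above in 5, where 4.92% of all genes were above in 5 or more. Cck was below in 7, where 0.401% were below in 7 or more. On the standard diet, Penk and Tac2 were the 2 members whose knockout group lay wholly above the wild type group (2.97% of all genes). On the ketogenic diet, Pdyn and Cck were the 2 that lay wholly below (1.98%). Without KC888LL, chosen after seeing the data, Penk and Npy were above in 5 of 7 libraries (3.98% of all genes in 5 or more), Tac1 in 4 of 7 (9.54% in 4 or more), and Cck was below in 7 of 7 (0.143%). Without it, Penk, Tac2 and Npy lay wholly above on the standard diet (10.8% of all genes) and Cck wholly below (11.4%).

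With all 16 libraries, no member passed the test of diet within a genotype; the exception without KC888LL was Cck in knockouts, given above. In wild type libraries the smallest adjusted p was 0.977, for Pdyn (0.29 ± 0.19, edgeR). This Pdyn value was 0.16 to 0.4 with a library left out. In knockouts the log2 fold change of ketogenic against standard diet was -0.61 ± 0.60 for Npy (adjusted p = 0.66) and 0.07 ± 0.69 for Penk (adjusted p = 0.974). The Npy value ran from -1.21 without KC934R to -0.01 without KC872RL. These comparisons share the knockout libraries with the genotype comparisons.

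**Figure D3:**
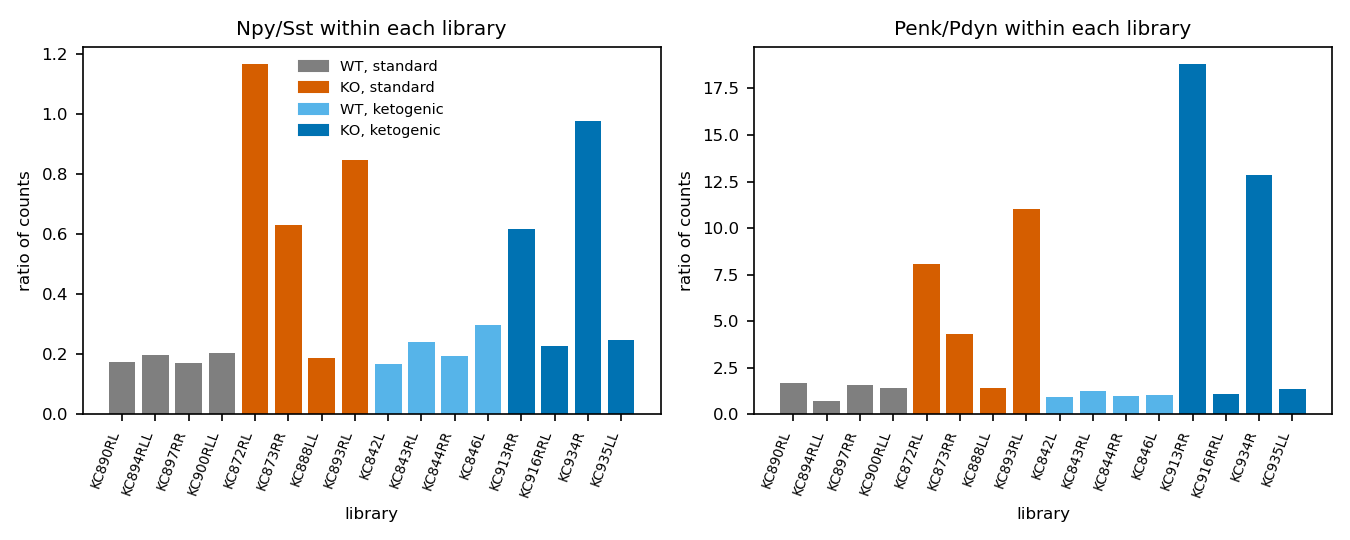
Ratio of Npy to Sst counts and of Penk to Pdyn counts within each of the 16 libraries, 1 bar per library coloured by group. The Npy to Sst ratio runs from 0.186 to 1.16 in knockout libraries and from 0.167 to 0.298 in wild type; the Penk to Pdyn ratio reaches 18.8 in knockouts and 1.68 in wild type.

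Ratios of 2 members within a library do not depend on its scaling. The Npy to Sst ratio of counts had a median of 0.196 in wild type libraries. It was 1.16 in KC872RL, 0.975 in KC934R, 0.846 in KC893RL, 0.631 in KC873RR and 0.618 in KC913RR, and 0.186 to 0.248 in the other 3 knockout libraries. The Penk to Pdyn ratio had a wild type range of 0.698 to 1.68. It was 18.8, 12.9, 11.0, 8.06 and 4.31 in KC913RR, KC934R, KC893RL, KC872RL and KC873RR, and 1.07 to 1.39 in the other 3. The same 5 libraries were outside the wild type range in both ratios. The Npy to Cck ratio was 0.0764 to 0.0901 in wild type libraries. It was 0.0936 in KC888LL, whose genotype is uncertain, 0.108 in KC935LL, 0.111 in KC916RRL and up to 1.22 (KC872RL) in the other knockout libraries. This pair joins a member seen higher in knockouts with a member seen lower, so its separation restates those observations. The share of other gene pairs that separate was not computed. As ratios of counts, these ratios compare libraries, not the levels of the 2 genes.

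**Figure D4:**
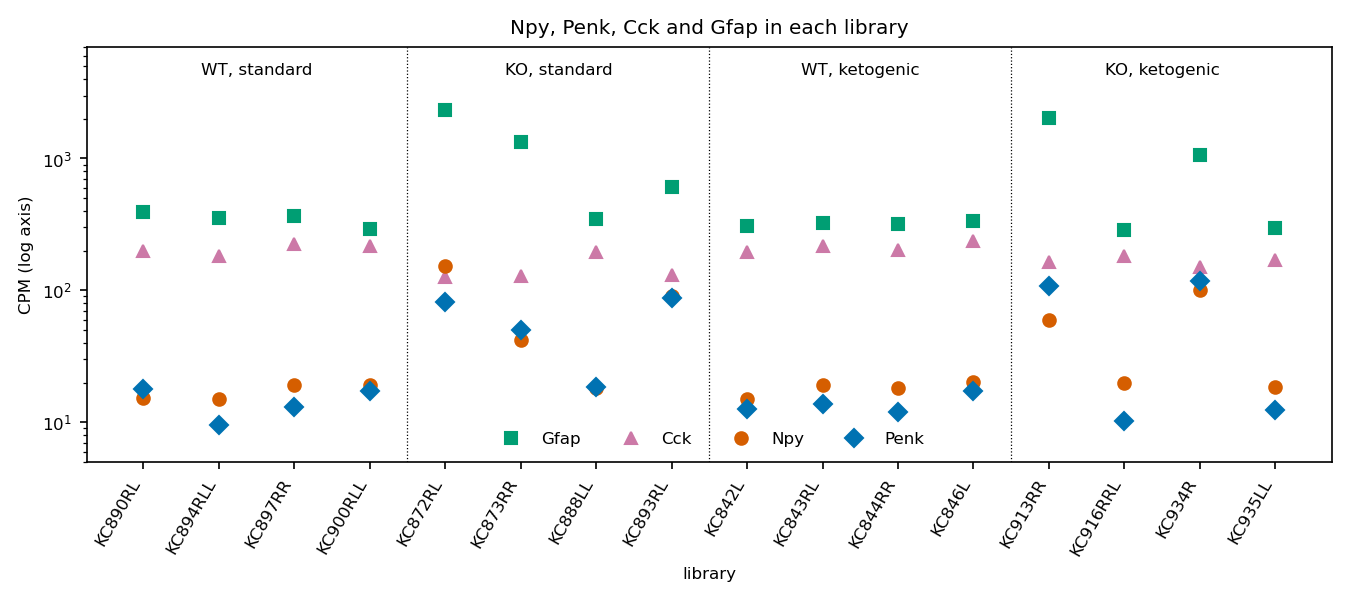
Level of Npy, Penk, Cck and Gfap in CPM on a log axis, with the 16 libraries along the x axis and 1 point per gene and library. The 5 knockout libraries with Gfap at 611 CPM or more are the 5 with Npy above every wild type library. Gfap was named after its values were seen.

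Those 5 libraries also stood apart for Gfap, an astrocyte filament gene that reactive astrocytes express strongly. Gfap was named after its values were seen. Of all tested genes, 4.92% were above every wild type library in 5 or more of the 8 libraries labelled knockout. The share above in these same 5 libraries was not computed. Gfap was at 294 to 390.4 CPM in wild type libraries, at 2327, 2018, 1340.0, 1059 and 611 CPM in KC872RL, KC913RR, KC873RR, KC934R and KC893RL, and at 288 to 348 CPM in the other 3 knockout libraries. The summed level of 10 GABAergic interneuron markers was 793 to 950.0 CPM in wild type and 946 to 1205 CPM in knockout libraries. The 8 striatal markers summed to 150.1 to 181 CPM in wild type and 148 to 186 CPM in knockout libraries apart from KC913RR at 242 CPM. Of 7 hypothalamic markers, Hcrt, Pmch, Avp and Oxt were below the filter, and the list summed to 1.19 to 3.79 CPM in wild type, 6.44 CPM in KC872RL and 13.2 CPM in KC913RR. The part of these genes in the Npy and Penk differences was not tested.

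Of 24 receptor genes for these peptides, 22 were tested and 0 were called in any comparison with all libraries. Averaged over diets, 4 were higher and 3 lower at an unadjusted p under 0.05 (8.14% and 7.7% of all genes), with a median log2 fold change of -0.01. Sort1, a sorting receptor that binds neurotensin, was the most abundant, at 742 to 831 CPM in wild type and 533 to 767 CPM in knockout libraries (averaged log2 fold change -0.24 ± 0.06, adjusted p = 0.0992, edgeR). Npy2r, a presynaptic receptor of neuropeptide Y, was at 41.3 to 67.0 and 31.4 to 78.0 CPM (0.01 ± 0.16, adjusted p = 0.979, edgeR). Ntsr2, a neurotensin receptor of astrocytes, was at 96.1 to 114 and 72.05 to 118 CPM.

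Of 13 genes for peptide processing and dense core vesicles, 0 were called. Averaged over diets, 3 were higher and 2 lower at an unadjusted p under 0.05 (8.14% and 7.7% of all genes). Cpe, the carboxypeptidase that trims peptide precursors, was at 2617 to 3013 CPM in wild type and 2592 to 3365 CPM in knockout libraries. Of 9 genes for peptide binding and degradation 0 were called, with 2 higher and 0 lower at that threshold. Of 24 listed precursors of other neuropeptides 12 were tested and 0 were called, with 5 higher, 0 lower and a median of 0.39. The tested genes include Gal and Pomc, which were at no more than 0.82 CPM in wild type libraries. Such genes may pass the filter through knockout libraries where they are high, so nothing is drawn from this count or median. Grp, the precursor of gastrin-releasing peptide, was at 4.87 to 16.3 and 10.8 to 29.6 CPM (0.66 ± 0.27, adjusted p = 0.26, edgeR), and Pnoc, the nociceptin precursor, at 4.77 to 7.06 and 4.37 to 13.6 CPM (0.57 ± 0.19, adjusted p = 0.18, edgeR). Of 15 activity-regulated genes, 0 were called, and 0 were higher and 10 lower at that threshold (8.14% and 7.7% of all genes). They summed to 508 to 634 CPM in wild type and 320.3 to 541 CPM in knockout libraries on the standard diet, and to 678 to 740.0 and 345 to 1004 CPM on the ketogenic diet. Without KC888LL, edgeR's test averaged over diets called 4.96% of all genes, among them 2 receptor genes higher and 4 lower, with Sort1 lower, and 8 activity-regulated genes lower. It also called Scg2 and Scg3, granins of dense core vesicles, and 3 of 10 interneuron genes, Gad1, Gad2 and Reln, higher. The precursors Gal and Pomc were called higher too, but were at no more than 0.82 CPM in wild type libraries. Their calls rest on the knockout libraries where they were high, and nothing is drawn from them. On the standard diet alone, the fit without KC888LL (5.73% of all genes called) had 0 interneuron genes higher and 1, Dlx1, lower, 7 activity-regulated genes lower, and 1 receptor gene higher and 4 lower (Sort1, Vipr1, Crhr1, Sstr1 and Sstr3 in all). Scg3 and the reactive astrocyte gene Serpina3n were also called higher there. Of the granule cell genes C1ql2, Calb1 and Dsp, 1 was called higher and 2 lower. For diet in knockouts (6.18%) the fit without KC888LL had 3 receptor genes higher, Sort1, Vipr1 and Sstr3, and Scg3 lower. In other marker lists, genotype averaged over diets without KC888LL had 3 of 3 reactive astrocyte genes (Gfap, Vim and Serpina3n) called higher. Granule cell C1ql2 and striatal Drd1 were also called higher there, and granule cell Calb1, Dsp and Sema5b and thalamic Plekhg1 lower. With all libraries that comparison called 0 genes of these lists. The part of these cell type markers in the Npy, Penk and Cck calls was not tested.

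The genes most like each member were those with the highest Pearson correlation of log2 CPM over the 16 libraries, which share genotype and diet groups. Only genes with a mean of at least 1 CPM were ranked. For Penk they were Mmd (0.956), Gal (0.947) and Necab3 (0.945). Gal, the galanin precursor, was at 0.118 to 0.82 CPM in wild type libraries and at 15.6, 8.83, 8.01 and 7.74 CPM in KC872RL, KC913RR, KC934R and KC893RL. It was at 2.16 CPM in KC873RR and at 0.176 to 0.541 CPM, inside the wild type range, in the other 3 knockout libraries. Gal stayed below 1 CPM in every wild type library and met the limit on mean level through knockout libraries where it was high. Its values describe libraries, and no test is drawn from them. For Npy they were Lrpap1 (0.947), Fam13c (0.945) and Serpinf1 (0.942). For Cck they were Gfod1 (0.95), Srf (0.948) and Sort1 (0.938), and for Tac1 they were Pid1 (0.905), Aldh1l1 (0.899) and Pstpip1 (0.863). The closest gene was Zfhx4 for Pdyn (0.88), Gm45884 for Tac2 (0.879), Itga9 for Sst (0.833), Tyw1 for Crh (0.812) and Gng5 for Nts (0.887).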

How the data were processed

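The authors deposited 1 table of raw counts per gene with a column per library; per the submitters' processing notes the build was mm10 and DESeq2 was used. The aligner, counting program and use of strand are not given in the sources used here. Columns were tied to the 4 groups by name and carry no replicate number. Libraries of a group differed by a chi-square of at least 3.86 per gene, so none was a copy of another in its group. Libraries of different groups were not compared in this way.

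All 16 libraries were fitted together in edgeR 4.0.16 (R 4.3.3) with filterByExpr, TMM scaling, 1 coefficient per group and the robust quasi-likelihood test, adjusted by Benjamini-Hochberg over 17469 genes; a gene was called at an adjusted p under 0.05. CPM used the effective library size and log2 CPM a prior count of 2. The code was tested on simulated data. Exon lengths came from GENCODE, in which 48970 of the table's 49315 identifiers were found. Named genes were the 10 members, Kcna1, up to 3 genes per list (the called ones, otherwise the most abundant) and genes correlated with members. The latter were the closest 3 for Penk, Npy, Cck and Tac1 and the closest 1 for Pdyn, Tac2, Sst, Crh and Nts. Gfap, Ddx3y, the antisense gene, hypothalamic genes below the filter and genes called without KC888LL were named outside this rule, after their values were seen. The genes most correlated with Vip are not reported here. Marker lists were summed in CPM. The members and lists were chosen with earlier results of these data known. Alternatives were other scalings, filters, prior counts, DESeq2 1.42.0, limma-voom (limma 3.58.1), Xist as a covariate, pairwise fits and leaving out each library.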

Additional observations from a re-analysis of the deposited data

Results flagged for a closer look

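Of 40 combinations of member and group, 3 held a library far from the other 3 of its group by Dixon's ratio of gap to range at the 95% critical value; about 2 would be expected by chance, at 1 in 20 groups. Cck in the library KC888LL (knockout, standard diet) was at 195 CPM, against 126 to 131 CPM in the other knockout libraries on that diet (ratio 0.929). KC888LL is the library with Kcna1 at 82.0 CPM. Pdyn in KC913RR (knockout, ketogenic diet) was at 5.75 CPM, against 9.22 to 9.57 CPM (ratio 0.908). Tac2 in KC916RRL (knockout, ketogenic diet) was at 1.05 CPM, against 2.17 to 2.32 CPM (ratio 0.884).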

How the results depend on the processing

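Over combinations of comparison and setting, the number of members called moved in 8 and was the same in 132; the 4 settings that moved it were DESeq2, no robust estimation, and leaving out KC888LL or KC916RRL. For genotype on the standard diet it was 2 with DESeq2 (0.967% of all genes called) and 0 to 2 when each library was left out in turn, with 2 without KC888LL (5.73%). For genotype averaged over diets it was 3 with DESeq2 (2.38%), 1 without robust estimation (0.258%) and 0 to 3 with a library left out: 3 without KC888LL (4.96%) and 1 without KC916RRL (0.722%), against 0.0973% of all genes with all libraries. For diet in knockouts and for diet averaged over genotypes it was 0 to 1 with a library left out, reaching 1, Cck, without KC888LL (6.18% and 2.58%). For the members' fold changes by genotype and by diet within a genotype, and those printed for other comparisons, 889 alternative values kept direction and side of the threshold, 13 came to pass it and 37 changed sign. Those that changed sign had the following ranges with a library left out. By genotype on the standard diet they were Pdyn (-0.19 to 0.06), Sst (-0.02 to 0.29), Vip (-0.08 to 0.07) and Crh (-0.13 to 0.29, and -0.04 with Xist as a covariate), and on the ketogenic diet Tac2 (-0.04 to 0.37). By diet in knockouts they were Penk (-0.45 to 0.42, and -0.45 with limma-voom) and Tac1 (-0.15 to 0.34). By diet in wild type they were Penk (-0.22 to 0.06), Tac2 (-0.16 to 0.22, and -0.08 with limma-voom), Cck (-0.01 to 0.09), Vip (-0.10 to 0.14, and 0 with limma-voom) and Crh (-0.19 to 0.34). The cause was not tested. A filter of 10 counts in every library removed Crh. No paired analysis was possible because the columns carry no replicate numbers. The groups had 4 libraries each, knockout libraries had a wide spread for Npy and Penk, and Tac2 and Crh had low counts. These may limit what could be called, which was not tested.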
